A study of Mus musculus with 4 samples.

Results

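The inhibin and activin subunit genes and the genes of their binding proteins were examined in ATAC-seq data, which read out open chromatin by where a transposase can reach the DNA. The 7 genes were Inha, Inhba, Inhbb, Inhbc, Inhbe, Fst and Fstl3. Their peaks were those whose gene name, in the authors' annotation of each library's peak list, was a member. This gave 69 of the 417506 peaks in 4 libraries, in 25 of 255101 regions made by merging peaks that overlapped. Of the 7 genes, 6 had at least 1 peak, and Fst had 0 in every library. The cells were LβT2, an established mouse line of the pituitary gonadotrope, called LbT2b in the titles and LβT2b in the growth notes. In both groups the cells were in serum-free medium overnight and then received 6 h of vehicle or of 1 nM activin A, with 2 libraries per group. No genetic change is named for either group. The cells are a line grown alone in culture, and the labels do not say whether the 2 libraries of a group came from separate cultures, so the p-values measure only the spread between these libraries.

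Activins are dimers of β subunits, and inhibins pair a β subunit with the α subunit encoded by Inha. Inhba, Inhbb, Inhbc and Inhbe encode the βA, βB, βC and βE subunits. Activin binds type II and type I receptors and signals through SMAD2 and SMAD3, and in the gonadotrope it raises transcription of the follicle-stimulating hormone β subunit gene. Inhibin competes for the type II receptor. Follistatin, from Fst, and follistatin-like 3, from Fstl3, bind activin outside the cell and keep it from its receptors. Pituitary gonadotropes are known to make βB subunits, the α subunit and follistatin, so the genes form a local loop around the hormone.

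Depth ran from 172146474 to 224226184 high-quality autosomal reads per library, which are the alignments that ataqv, a quality control program for ATAC-seq, kept after removing duplicates and low-quality alignments. The lists held 83344 and 178358 peaks for vehicle, and 85112 and 70692 for activin. Enrichment of reads at start sites reached 2.72 and 2.48 for vehicle against 3.12 and 3.04 for activin, and no library of a group lay between those of the other. Of 9 gonadotrope marker genes, 8 had a promoter peak in all 4 libraries, and Fshb had 0. The share of all genes with such a peak is not given here. Of 18 markers of other pituitary lineages, stem, fibroblast, immune and endothelial cells, 0 had a promoter peak in all 4. Several did have one in 1 to 3 libraries. The strongest by −log10 q (the authors' measure of a peak's strength) was Col1a1. Its values were 1.39 in vehicle library 1, and 5.09 and 2.99 after activin. Pdgfra had 3.11 in vehicle library 2, and 3.66 and 4.53 after activin. Gh and Pomc had a peak in both vehicle libraries and in neither activin library. The count of 0 thus does not show that these promoters were closed. Read density also differed between chromosomes in every library. It was 0.446 to 0.449 reads per kb per 1000000 high-quality reads over chromosome 1, 0.283 to 0.285 over chromosome 10 and 0.263 to 0.268 over chromosome 13. A density is therefore also given as a multiple of the mean of its chromosome.

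Promoter DNA is shown first for 4 genes, because they differ in how called peaks lay over their start sites. The sequences are from RefSeq (GRCm38.p6) and run 5′ to 3′ on the strand named. Capitals mark bases inside a called peak of all 4 libraries, or, for Inhbc, of both vehicle libraries.
Inha-Obsl1, between the divergent genes (chr1:75506487-75506702, minus strand): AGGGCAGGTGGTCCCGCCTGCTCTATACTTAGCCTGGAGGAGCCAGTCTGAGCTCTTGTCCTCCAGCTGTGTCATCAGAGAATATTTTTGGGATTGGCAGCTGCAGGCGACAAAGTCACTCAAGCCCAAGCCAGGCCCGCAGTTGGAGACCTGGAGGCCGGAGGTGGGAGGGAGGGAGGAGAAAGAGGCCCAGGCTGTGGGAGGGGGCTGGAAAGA
Inhbb (chr1:119422249-119422498, minus strand): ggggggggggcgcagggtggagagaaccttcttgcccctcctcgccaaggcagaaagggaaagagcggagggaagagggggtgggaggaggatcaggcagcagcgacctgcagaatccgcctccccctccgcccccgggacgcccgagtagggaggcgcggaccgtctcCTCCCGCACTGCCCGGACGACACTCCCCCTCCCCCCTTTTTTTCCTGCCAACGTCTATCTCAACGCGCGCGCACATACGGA
Inhbc (chr10:127370549-127370798, minus strand): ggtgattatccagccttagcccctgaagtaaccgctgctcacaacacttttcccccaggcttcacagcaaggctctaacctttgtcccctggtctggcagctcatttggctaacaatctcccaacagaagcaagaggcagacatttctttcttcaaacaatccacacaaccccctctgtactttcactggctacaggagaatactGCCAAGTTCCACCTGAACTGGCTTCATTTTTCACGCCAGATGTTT
Fstl3 (chr10:79777024-79777273, plus strand): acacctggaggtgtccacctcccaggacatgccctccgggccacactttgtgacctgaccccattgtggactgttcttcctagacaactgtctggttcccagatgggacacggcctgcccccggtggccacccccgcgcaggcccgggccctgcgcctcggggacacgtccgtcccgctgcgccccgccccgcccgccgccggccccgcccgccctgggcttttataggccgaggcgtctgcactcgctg
The Inha sequence is 216 bases of the 590 bp between the RefSeq ends of Inha and its upstream neighbour Obsl1, 375 to 590 bp before the Inha start, and all 216 bases lay in peaks of all libraries. The other sequences are the 250 bases before the RefSeq start. In Inhbb 81 of them, those nearest the start, were in peaks of all 4 libraries. In Inhbc 45 were in peaks of both vehicle libraries and 0 in peaks of both activin libraries. In Fstl3 0 bases were in a peak of any library, although the window was 71.2% G and C with 22 CpG pairs, against a median of 52.4% and 6 over 32851 RefSeq promoter windows. The Inhbb window had 68% and 21, and the Inhbc window 48.8% and 2. The RefSeq start listed for Inha (75507609) lay inside the gene, and the table's window around it began 61 to 218 bp past the called intervals, so the bases next to the upstream Inha start are not printed. Fst had no entry in the promoter table.

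Short motifs were searched on both strands of these windows. N stands for any base. For SMAD proteins, which carry the activin signal, the letters were GTCTG, and for their second site GGCGCC. For the zinc finger protein Sp1 they were GGGCGG, for a TATA box TATAAA, and for an E-box CANNTG. For GATA factors they were GATAA, for forkhead factors TAAACA, for AP-1 TGANTCA, for NR5A1 AAGGNCA, and for the short site of cAMP response factors CGTCA. Matches of different motifs could overlap. The sequence upstream of Inha held 4 matches of CANNTG and 1 of GTCTG, found in 61.6% and 38.0% of RefSeq promoters over the same 216 bases. The Inhbb window held 1 match, of GGGCGG, which 32.7% of 250-base windows hold. The Fstl3 window held 4 matches of GGGCGG, 3 of CANNTG, 2 of GTCTG and 1 of TATAAA. The TATAAA match was on the strand opposite to the gene and reads TTTATA in the printed sequence. Its base farthest from the start lay 29 bp before it, and TATAAA is in 12.4% of windows. The Inhbc window held 3 matches of CANNTG, 2 of GTCTG and 1 of GATAA. Of all 250-base windows, 66.2% hold CANNTG, 42.2% GTCTG and 22.6% GATAA. A match describes letters only.

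At Inha, the gene of the inhibin α subunit (ENSMUSG00000032968), a broad promoter peak was called in all 4 libraries and was stronger in both lists of activin-treated cells. The merged region (chromosome 1, 75505204 to 75507298) covered the Inha start of the annotation and also the start of Obsl1, a gene on the opposite strand that encodes a cytoskeletal linker protein, so its reads cannot be assigned to either promoter. Its −log10 q stood at 5.61 and 4.47 for vehicle, against 13.2 and 10.6 after activin. The authors' fold enrichment stood at 2.45 and 2.24, against 2.96 and 3.06. In density, that is high-quality reads per kb and per 1000000 such reads of the library, the vehicle values were 3.41 and 2.86 and the activin values 4.12 and 4.06. On all 3 scales the groups were apart, with activin higher. The density averaged 3.14 ± 0.391 for vehicle against 4.09 ± 0.0375 for activin (SD, n = 2), and over the 4 libraries it was 8.08 times the mean of chromosome 1. Both activin densities were also the higher ones at 62.4% of the 13871 regions that the libraries shared, so the test was made after each library was centred on the median of its shared regions. On that centred log2 scale the change was 0.11 ± 0.10 (SE; 95% interval −0.11 to 0.34), with an unadjusted p of 0.272 and an adjusted p of 0.724 in limma, which is not significant. With density scaled to every high-quality read and no centring, the change was 0.39 (limma adjusted p = 0.0907). It was 0.028 among regions with a common part of at least 80%, and 0.037 without division by peak length. The only other Inha peak, in exon 2 of 2 (75509536 to 75509749), was called in vehicle library 2 with a −log10 q of 1.40.

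Inhbb, which encodes the βB subunit (ENSMUSG00000037035), had the most regions of the 7 genes, 13 of 25. A wide peak over its start site and exon 1 of 2 (chromosome 1, 119420225 to 119422367) was called in every list. Vehicle gave a −log10 q of 3.37 and 2.92, and activin 4.49 and 3.41, while the density was 2.65 and 2.22 against 2.81 and 3.02. Both put activin higher before centring, while the fold enrichment overlapped, with 2.18 and 2.01 against 2.14 and 2.15. The centred log2 change was −0.01 ± 0.12 (SE; 95% interval −0.28 to 0.26; limma adjusted p = 0.985), and the centred densities of the groups overlapped. The region was 2143 bp wide and 5.99 times the mean of its chromosome.

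A group of 4 regions lay 24.3 to 35.8 kb downstream of the Inhbb start, beyond the end of the gene, and each was called in all 4 libraries. Their −log10 q ran from 2.01 to 7.13 and their densities from 2.37 to 4.17. At the start site these ran from 2.92 to 4.49 and from 2.22 to 3.02. Some downstream regions thus reached higher on both measures, but the one at 32.7 kb reached only 3.78 in −log10 q. In the vehicle lists some were weaker in −log10 q. The downstream intervals were also shorter, 244 to 1490 bp against 1844 to 2143 bp, so the densities are over unlike widths. The region at 24.3 kb (119397212 to 119398489, intergenic) had strengths (−log10 q) of 2.68 and 2.31 in the vehicle lists, and of 5.96 and 6.98 in the activin lists. Its vehicle densities of 2.38 and 2.37 nearly coincided, and the activin densities were 2.64 and 3.97, so both activin libraries were higher. It was the 1 member region with a −log10 q of at least 5 in both activin libraries and in neither vehicle library; regions of that kind made up 12.0% of all regions with a peak of that strength. The interval called in activin library 2 was 519 bp long against 850 to 1278 bp in the others, and the common part was 35.5% of the union. The region was thus outside the rule for the test, which asked for 50%. Fitted without that minimum, its log2 change was 0.27 ± 0.21 (SE; limma adjusted p = 0.676).

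The region at 32.7 kb (119388759 to 119390248, intergenic) could be tested. Its strengths were 2.01 and 2.30 for vehicle against 3.78 and 3.57 for activin. Its densities were 2.74 and 2.44 against 3.04 and 2.93, and its centred log2 change was −0.07 ± 0.11 (SE; 95% interval −0.31 to 0.18; limma adjusted p = 0.865). The activin densities were above the vehicle densities before centring and below them after it, where the median of the shared regions, higher by 0.27 on the log2 scale with activin, had been taken off. The region at 28.9 kb (119393144 to 119393831) also gave higher strengths with activin, 7.13 and 4.38 against 2.76 and 3.55. Its density did not separate the groups, with 4.12 and 2.89 against 4.17 and 3.04. The region at 35.8 kb (119386114 to 119386878), at the annotated transcript end of Gm29455, had overlapping values on both scales, with strengths of 4.24 and 4.17 against 6.33 and 3.36 and densities of 3.27 and 3.54 against 3.56 and 2.60. Fitted without a minimum on the common part, the last 2 had log2 changes of −0.13 and −0.34 (limma adjusted p = 0.833 and 0.565). Their intervals differed in length, with 244 and 461 bp against 458 and 661 bp at 28.9 kb. At 35.8 kb they were 405 and 433 bp against 654 and 704 bp. The high-quality reads, not scaled for depth, were 173 and 295 against 428 and 358 at 28.9 kb. At 35.8 kb they were 228 and 339 against 522 and 326. The part of interval length in these changes was not tested.

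**Figure D1:**
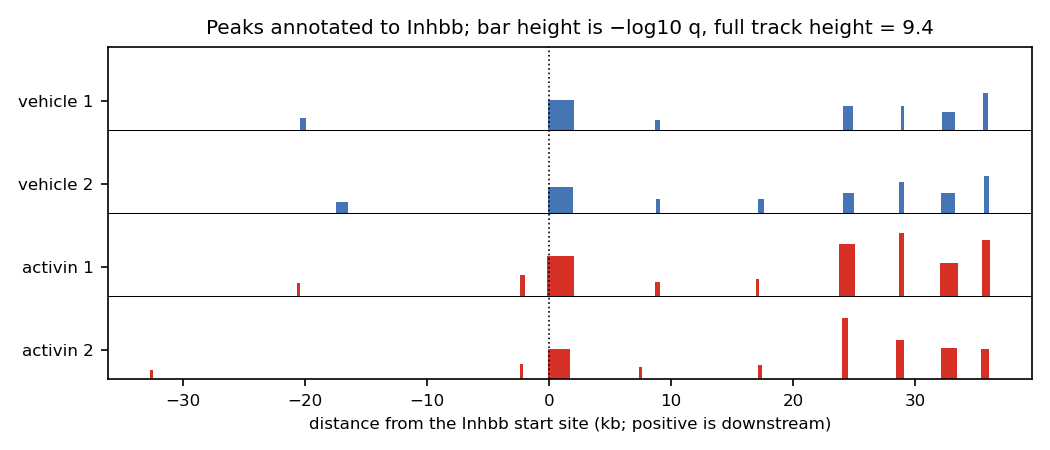
Peaks annotated to Inhbb in each library, placed by the annotated distance of their centre from the start site in kb (positive is downstream). Bar height is the −log10 q on the same scale in every track and bar width the peak length, with at least 0.25 kb drawn; the start site and the 4 regions between 24.3 and 35.8 kb were called in all libraries, and the peak just upstream of the start in the activin libraries.

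Closer to Inhbb, an intergenic region at −2.14 kb from the start (119424189 to 119424609) was called in both activin libraries and in neither vehicle library. It was weak, with a −log10 q of 2.39 and 1.73, and held 222 and 125 high-quality reads, or 2.46 and 2.55 reads per kb per 1000000. Reads at this place in the vehicle libraries are not listed, because only called peaks have a read number, so no fold change is given. At a −log10 q of 2 or more it would remain in activin library 1 alone. Over all merged regions 1.35% were of this kind, and 1 of the 25 member regions. Regions at 17.1 kb (119404641 to 119405301) and 8.89 kb (119413122 to 119413594) downstream were called in 3 libraries each, with a −log10 q of at most 1.93. The remaining 5 Inhbb regions were called in 1 library each.

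At Inhba, the βA subunit gene (ENSMUSG00000041324), the start site of the RefSeq promoter table was not covered by a peak in any library. The nearest region (chromosome 13, 16012004 to 16012735) began 104 to 428 bp past the RefSeq promoter window, and was annotated to exon 2 of 5 in 3 libraries and to intron 2 of 4 in vehicle library 2. By the annotation it lay at −2.11 kb from another start of the gene. The vehicle lists gave it a −log10 q of 5.53 and 4.28, the activin lists 6.20 and 6.21, and the fold enrichment was 3.75 and 3.22 against 3.53 and 3.91. The groups overlapped in density, with 1.75 and 2.19 for vehicle and 1.46 and 1.78 for activin. The mean over the libraries was 6.76 times the mean of chromosome 13. The intervals were 361 and 163 bp long with vehicle and 732 and 446 bp with activin, which shared 22.3% of their union. Fitted without a minimum on that share, the log2 change was −0.47 ± 0.23 (SE; limma adjusted p = 0.551). The high-quality reads, not scaled for depth or length, went the other way, with 109 and 79 for vehicle and 239 and 141 for activin. The part of interval length in the change was not tested.

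A second Inhba region called in all 4 libraries was of another kind. It lay at −181 kb (15832232 to 15836591), inside the transcribed pseudogene B230303A05Rik, and was made of 9 peaks of 220 to 3041 bp with a −log10 q of 1.19 to 2.54. Of these, 8 held 0 high-quality reads and the ninth held 2. Among all autosomal peaks, 2.28% to 3.71% per library held 0 such reads. No comparison of reads can be made there. The other 3 Inhba regions were called in 1 library each.

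Inhbc and Inhbe, neighbours on chromosome 10 that encode the βC and βE subunits and are best known from the liver, had little signal of their own. A weak peak over the Inhbc start and exon 1 of 2 (ENSMUSG00000025405; 127369528 to 127370810) was called in both vehicle libraries and in neither activin library. Its −log10 q was 1.39 and 1.48, and it held 214 and 141 high-quality reads, or 0.969 and 1.02 reads per kb per 1000000. Regions called in both vehicle libraries alone made up 4.86% of all merged regions. The strong region that bears the name Inhbc lay at −10.3 kb (127380218 to 127381382) and was annotated as the promoter of R3hdm2, the adjacent gene. Its strengths were 10.0 and 7.17 for vehicle against 10.5 and 7.92 for activin, its densities 2.84 and 2.02 against 2.82 and 2.75, and the log2 change was −0.06 ± 0.14 (SE; 95% interval −0.37 to 0.24; limma adjusted p = 0.911). Inhbe (ENSMUSG00000047492) had 1 peak in all, in vehicle library 2, which lay in exon 2 of 2 of Inhbc (127356713 to 127357345) with a −log10 q of 1.17. No peak covered the Inhbe start; the nearest peak was 4615 to 12489 bp from its window.

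**Figure D2:**
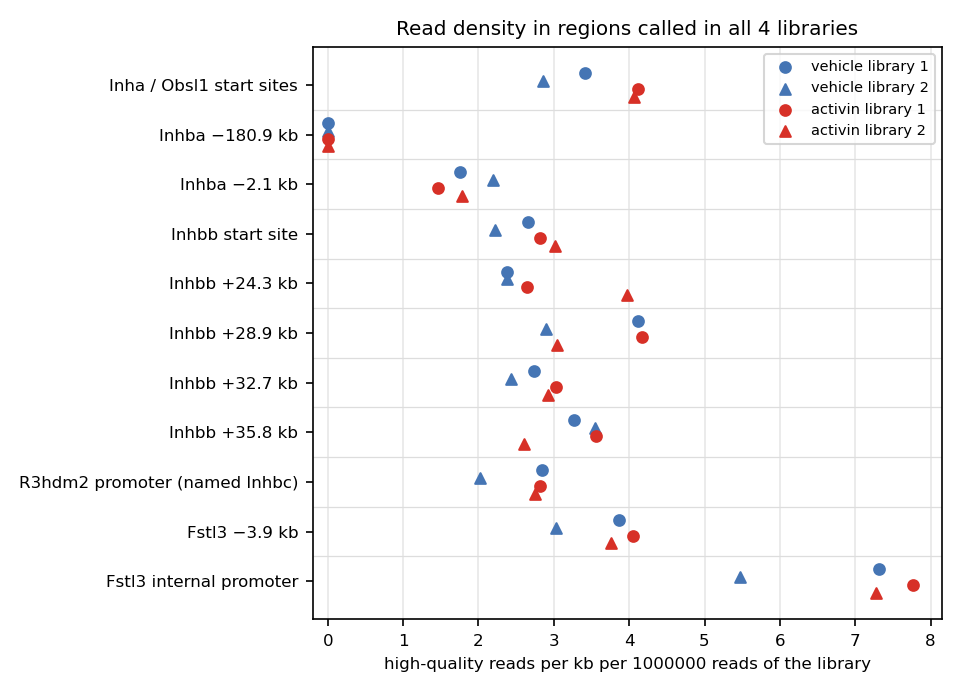
Density of high-quality reads, per kb and per 1000000 reads of the library, in the 11 member regions called in all 4 libraries (points are libraries, colours are treatments). The promoter inside Fstl3 lies highest, at 5.46 to 7.76, and the region at −181 kb from Inhba at or near 0. The activin libraries are above the vehicle libraries at Inha, the Inhbb start, Inhbb +24.3 kb and Inhbb +32.7 kb, and the groups overlap at the other 7.

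The genes of the 2 binding proteins differed. Fst (RefSeq chromosome 13, 114452262 to 114458989), which encodes follistatin, had no peak over the gene in any library, and no peak of the lists bore its name. The nearest peaks were 57.7 to 64.1 kb away at lower coordinates and were named for Ndufs4, which encodes a subunit of mitochondrial complex I. The peak nearest to the Ndufs4 start was called in all 4 libraries, with strengths of 4.13 and 1.48 for vehicle against 2.96 and 1.97 for activin. On the other side, the nearest peaks were 80.5 to 83.2 kb away and held 0 to 2 high-quality reads. At this depth no accessible region was detectable at Fst in peak lists whose lowest −log10 q was 1.00001 to 1.00307; regions weaker than that were not analysed here.

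Fstl3 (ENSMUSG00000020325), which encodes follistatin-like 3, had the strongest region of the 7 genes. It lay inside the gene (chromosome 10, 79779906 to 79781139), 3.30 kb downstream of the start to which the distance was given, and was annotated as a promoter of Fstl3, that is, at another annotated start. No peak covered the upstream RefSeq start, whose window was 2583 to 2726 bp from the nearest peak. For vehicle the strengths were 35.0 and 29.6 and the densities 7.31 and 5.46. After activin they were 51.0 and 42.0, and 7.76 and 7.28. The mean density was 24.5 times the mean of chromosome 10. In centred density, not divided by the chromosome mean, the Inha region ranked above 69.0% of the 13871 shared regions. The Inhbb start site ranked above 46.6% on that scale, and this Fstl3 region above 96.7%. Vehicle library 2 was low and the other 3 libraries were close together. The centred log2 change was −0.02 ± 0.11 (SE; 95% interval −0.27 to 0.22; limma adjusted p = 0.963). A second region at −3.87 kb from the same start (79773238 to 79773794, intergenic) was also called in every library, with strengths of 4.57 and 6.05 for vehicle against 11.3 and 8.93 for activin. Its density was 3.86 and 3.03 against 4.05 and 3.76, with a log2 change of −0.08 ± 0.10 (SE; 95% interval −0.32 to 0.15; limma adjusted p = 0.821). At both Fstl3 regions the −log10 q separated the groups and the densities overlapped.

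**Figure D3:**
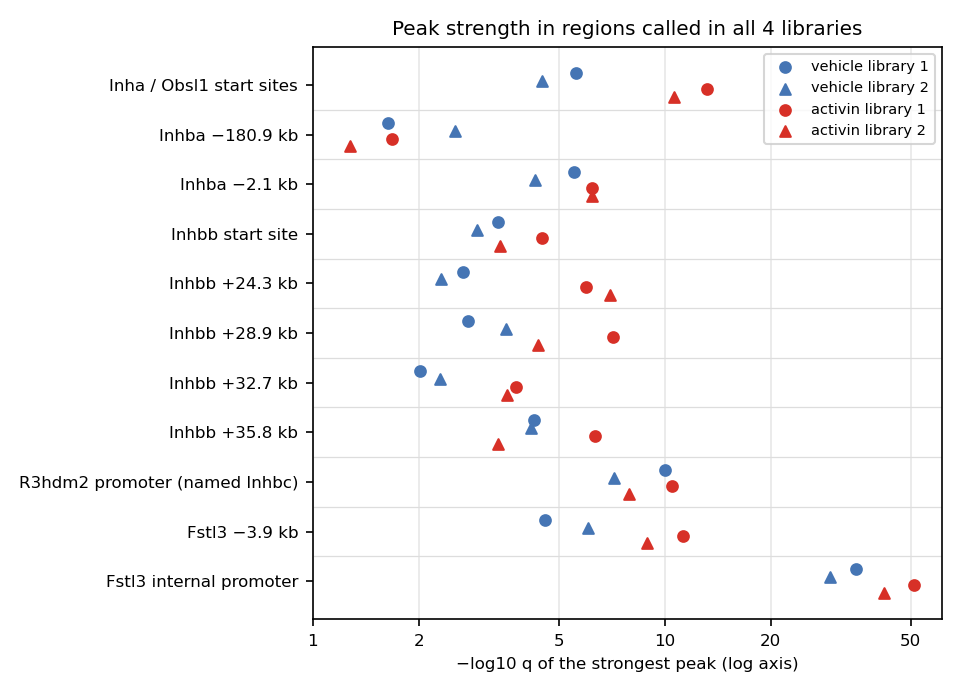
The −log10 q of the strongest peak of each library, on a log axis, in the same 11 regions. Activin values are the higher ones at 8 of them, among them Inha and both Fstl3 regions; the groups overlap at the region at −181 kb from Inhba, at Inhbb +35.8 kb and at the R3hdm2 promoter.

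Over all 6 member regions that met the rule for the test, none passed an adjusted p of 0.05 (limma with Benjamini-Hochberg adjustment; 0 regions, and 0 at an unadjusted p under 0.05). Among the 13871 regions tested the share called was 0%, and 9.53% had an unadjusted p under 0.05, 3.62% higher and 5.91% lower with activin. The member changes ran from −0.08 to 0.11 with a median of −0.04, against a median of −0.00 over all regions; 1 was positive, beside 48.9% of all regions, and the adjusted p ran from 0.724 to 0.985. Centred densities of both activin libraries were above those of both vehicle libraries at 1 member region, Inha, where 20.9% of all regions were of that kind, and below at 1, Inhbb +32.7 kb, where 20.5% were. The −log10 q was higher in both activin lists at 5 of the 6, and lower in both at 0, where 71.7% and 2.34% of all shared regions were so. The fold enrichment was higher in both at 4 of the 6 and lower in both at 0, against 61.0% and 3.23%. Before centring the density was higher in both at 3 of the 6, against the 62.4% given above. Scaled to all high-quality reads, all 6 changes were positive (0.19 to 0.39) and 0 members were called, where 3.99% of all regions were called higher and 0.375% lower. Higher peak strength with activin was thus the usual state of shared regions, members or not. The enrichment at start sites was also higher in both activin libraries, so it cannot be told apart from treatment. Its part in the strengths was not tested. In bulk chromatin, more accessible alleles and a larger accessible share of cells cannot be told apart.

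**Figure D4:**
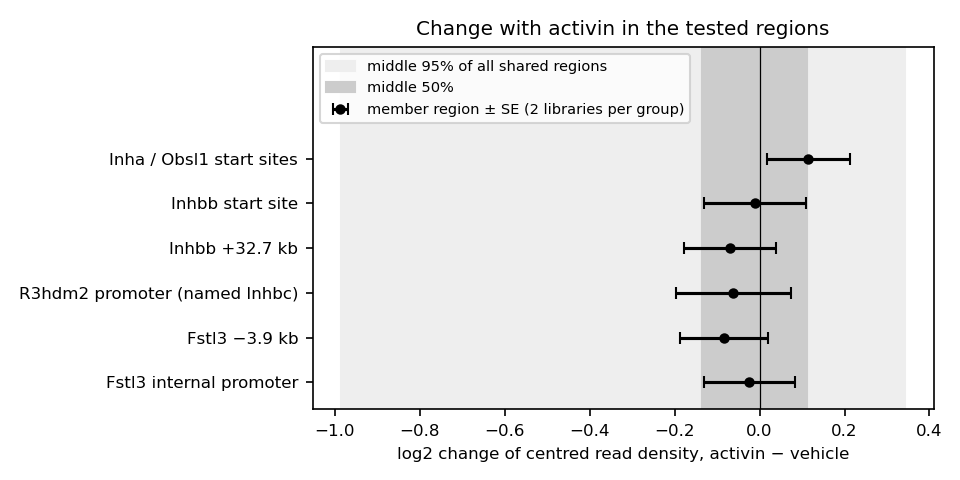
Change of centred log2 read density with activin in the 6 tested member regions (points, with SE from limma, 2 libraries per group). The grey bands hold the middle 95% (−0.985 to 0.343) and the middle 50% (−0.135 to 0.111) of all 13871 shared regions; the points run from −0.08 to 0.11.

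The number of member peaks overlapped between the treatments in the full lists and at a −log10 q of at least 2. It was higher with activin at a −log10 q of at least 5 or with lists of equal numbers. The members had 15 and 21 peaks for vehicle, against 17 and 16 after activin (18 ± 4.24 and 16.5 ± 0.707, SD, n = 2; exact permutation p = 1, 2-sided, where the smallest possible is 0.3333). The difference of −1.5 peaks was 1.5 without vehicle library 2, the library with the most peaks in all. At a −log10 q of at least 2 the members had 10 and 13 against 11 and 10. Over all genes these were 28646 and 41388 against 39522 and 32240. Counting peaks at a −log10 q no lower than 5 left 4 and 3 in the vehicle lists against 8 and 6 after activin (exact permutation p = 0.3333), beside 12377 and 12760 against 19819 and 15807 over all genes. With the same number of peaks taken from each list the members had 14 and 13 against 16 and 16 (exact permutation p = 0.3333). Of the 25 member regions, 11 (44%) had a peak in every library, where 11.7% of all merged regions did, and 10 (40%) were called in 1 library, where 67.4% were, 5 of them in vehicle library 2. These 10 had a −log10 q of 1.06 to 2.28.

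The other genes of the pathway, a list of 20, had a promoter peak in all 4 libraries at 16 and in none at 4. The share of all genes with such a peak is not given here, so the count does not set the pathway apart. The −log10 q ran from 35.2 to 53.6 at Smad2, but from 1.28 to 2.21 at Pcsk6 and from 1.57 to 2.28 at Acvr1c. All 4 activin receptor genes of the list (Acvr1b, Acvr1c, Acvr2a and Acvr2b) and both inhibin co-receptors (Tgfbr3 and Tgfbr3l) were among the 16. So were Smad2, Smad3, Smad4, the inhibitor Smad7 and the convertase genes Furin, Pcsk5 and Pcsk6. The 4 with no promoter peak were Foxh1, a SMAD partner, and the ligand genes Mstn, Bmp2 and Bmp4, whose proteins follistatin also binds. The other listed genes of follistatin-bound ligands, Gdf11 and Bmp7, were among the 16. Their −log10 q ran from 2.13 to 7.57 and from 5.30 to 15.7. Of the 11 in the fit, 0 passed the adjusted threshold, 6 had a positive and 5 a negative change, and the median was 0.06. Bambi, which encodes a decoy receptor, was the 1 gene of the 11 with both centred activin densities higher (log2 change 0.34 ± 0.14, SE; limma adjusted p = 0.503), against 20.9% of all regions.

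Promoters with the most similar densities over the 4 libraries were found by the root-mean-square difference of centred log2 density among 6976 promoter regions. For Inha these were Gm10434 (0.0253), Pald1 (0.0294) and Ubp1 (0.0301). For the Inhbb start they were Nedd1 (0.0346), Gm10244 (0.0360) and Snord14a (0.0378), and for Fstl3 Angptl2 (0.0434), Pvrl2 (0.0445) and Tmem50b (0.0475).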

How the data were processed

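The 4 libraries, 2 of vehicle and 2 of activin A, were grouped by their titles. Each has 3 deposited files. The authors' broad peak list, called on that library alone, gives a score, a fold enrichment (a ratio to the caller's background), a −log10 p and a −log10 q per peak. The deposited annotation comes from HOMER (annotatePeaks.pl), per the file headers; its score repeats that of the list, and its distances are bp from the peak centre to a start site. The third is a report of ataqv 1.3.1, per the file headers, with the high-quality reads over each autosomal peak. Bowtie2, MACS2, HOMER and the builds GRCm38 and mm10 are named, per the submitters' processing notes, with no settings given there. Positions are counted from 1.

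Peaks were merged at an overlap of 1 bp. Regions with exactly 1 peak per library and a common part of at least 50% of the union were tested with limma 3.58.1 (R 4.3.3, eBayes with a trend) on log2 of high-quality reads plus 1, divided by the length in kb of the peak in that library, centred on library medians, with Benjamini-Hochberg adjustment over all 13871 regions at 0.05. A fold change on that scale understates change at few reads. The fit was run on simulated data with known changes of 1 on the log2 scale, larger than any tested member change. That run does not show what the fit would detect at smaller changes. Peaks lie in intervals that differ between libraries, so no count model was used. Strength values are the authors' and describe peaks within a list. List genes have a promoter peak where a region annotated as their promoter, or overlapping their RefSeq window, holds a peak. All 7 members were accounted for; regions with a peak in every library, at a promoter, or in both libraries of 1 treatment are described by sample. The members, lists and tests were chosen with earlier results of these data known. Depth was 172146474 to 224226184 high-quality reads. RefSeq symbols and sequences are of GRCm38.p6; all 7 members matched the gene table and 6 the promoter table.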

Additional observations from a re-analysis of the deposited data

How the results depend on the processing

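The limits are 2 libraries per group, intervals that differ between libraries, and read numbers that exist only for called peaks. No member region passed the adjusted threshold under any of the alternatives run. Over all regions tested the count past it was 0; it was 1 with a pseudocount of 10 reads, 605 (553 higher and 52 lower) when scaled to all high-quality reads, 39 without division by length, 4 with the replicate block, and 0 to 9 without 1 library. It stayed at 0 with a mean of at least 50 reads, a common part of at least 80% or with no minimum on it, and in peaks whose −log10 q reached 2. Scaling to all high-quality reads moved the median region by 0.27. Under it the change was 0.19 at Fstl3 −3.9 kb, 0.25 at the promoter inside Fstl3, 0.20 at Inhbb +32.7 kb, 0.26 at the Inhbb start and 0.21 at the R3hdm2 promoter, all negative in the main analysis. With no minimum on the common part these were 0.017, 0.077, 0.031, 0.089 and 0.039. Without division by length Inhbb +32.7 kb was 0.11, the Inhbb start −0.23 (limma unadjusted p = 0.0324, adjusted p = 0.440), Fstl3 −3.9 kb −0.34, the promoter inside Fstl3 −0.046, the R3hdm2 promoter −0.11 and Inha 0.037. With a common part of at least 80%, Inha was 0.028, the Inhbb start −0.099 and the R3hdm2 promoter −0.15. Leaving out 1 library gave −0.17 to 0.0062 at Fstl3 −3.9 kb, −0.15 to 0.10 inside Fstl3, −0.10 to 0.077 at the Inhbb start, −0.22 to 0.10 at the R3hdm2 promoter, and 0.08 to 0.15 at Inha. Inha was positive under all 12 alternatives, but its size ran from 0.028 to 0.39. The cause was not tested. The difference in member peaks was −1 with a −log10 q of at least 2 and 3.5 with at least 5. It was 2.5 when each list was reduced to the same number of peaks. Counting any peak within 50 kb of a start site gave −4.5, and leaving out 1 library gave −4.5 to 1.5. With a −log10 q of at least 5, 2 of 8 member regions (25%) were called in all libraries in place of 11 of 25, where 48.9% of all such regions were. In both vehicle libraries alone 0 were called, in place of 1, beside 0.381% of all such regions. With at least 2, 0 of 14 were called in both libraries of 1 treatment alone. Of all such regions, 1.48% were called in both vehicle libraries alone and 4.93% in both activin libraries alone. Of the 14, 10 (71.4%) were called in all libraries, against 30.8% of all such regions. The other 4 (28.6%) were called in 1 library, against 48.5%. Deviations from group means of libraries with the same replicate number correlated at −0.0252, and the replicate block changed no member's call. These values cannot show whether the libraries were prepared in pairs.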
